A study of Mus musculus with 24 samples.

Results

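The genes described here are 28 genes of GABA signalling, covering the synthesis, transport and breakdown of the transmitter, the subunits of its receptors, the proteins that hold these receptors at the synapse or set the chloride gradient, and the transcription factors of GABAergic neurons. They were chosen by name, with earlier results of these data known. Their probe sets are those of a mouse genome array whose annotation gives 1 of these symbols. Of the 28, 27 were measured among 18193 genes with a symbol of their own, by 63 of 45037 probe sets, and Gabbr2 is not analysed here. The value of a gene was the mean of its probe sets.

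The CMS groups were wild-type male C57BL/6 mice kept under chronic mild stress (CMS), an unpredictable series of mild stressors given on 6 days per week for 4 weeks, and the control groups were wild-type male C57BL/6 mice of the same series without these stressors. The mice were 6 to 8 weeks old when obtained, by the methods, and so older at tissue collection, after the weeks of stress. RNA of the prefrontal cortex (PFC), the cerebral cortex (CC), the hippocampus and the amygdala was measured on 24 arrays, 3 for each treatment and area. The titles call the samples biological replicates and the methods name pooled RNA, so the p-values measure the spread between these samples, which may be technical.

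The files hold log2 values, with each probe set centred at a median of 0 over the 24 arrays. A value of 1 therefore means a signal 2 times that median, levels can be compared between arrays for 1 gene but not between genes, and whether a transcript was absent cannot be read. Within groups the median SD of a probe set was 0.0334 to 0.0661, and 28.5% of all probe sets moved by less than 0.3 over the 24 arrays. Both probe sets of Gabra6 and the single probe sets of Gabre and Gabrq were among these flat ones. Markers of the areas were highest in the area named on the label for 6 of 7 hippocampus genes, 3 of 5 amygdala genes and 3 of 7 cortex genes in the CC of control mice. The PFC arrays also carried markers of the olfactory bulb. The mean of these 5 genes was 5.08 to 5.21 in CMS and 4.98 to 5.06 in control PFC, against -0.25 to 0.57 in the CMS arrays and -0.42 to 0.45 in the control arrays of the other areas.

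GABA is the main inhibitory transmitter of the forebrain. It is made from glutamate, packed into vesicles, and acts on GABA-A receptors, which are chloride channels of 5 subunits, and on GABA-B receptors, which couple to G proteins. Which alpha, beta and gamma or delta subunits a neuron joins sets where its receptors sit and which drugs they bind. The central amygdala is rich in GABAergic projection neurons, while the GABAergic neurons of the cortex and hippocampus are mostly interneurons.

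Many GABA-A receptor genes lie next to each other. By the RefSeq gene order, Gabrg1 and Gabra2 are neighbours on chromosome 5, as are Gabra4 and Gabrb1, and Gabrg3 and Gabra5 on chromosome 7, Gabra6 and Gabrb2 on chromosome 11, Gabra3 and Gabrq on chromosome X, Dlx1 and Dlx2 on chromosome 2 and Dlx5 and Dlx6 on chromosome 6 are also adjacent. The promoters of both synthesis genes and of the Gabrg1 and Gabra2 pair are shown, because Gad2 had a CMS difference in 3 areas and Gabrg1 and Gabra2 were both lower in the amygdala with CMS. Each holds 250 bases before and 50 after the start in the RefSeq table of build GRCm38.p6, and capitals mark the homeodomain core TAATTA or TAATTG, the kind of site that DLX and LHX factors bind, searched on both strands. Gad1 is the window chr2:70561879-70562178 (plus strand), Gad2 is chr2:22622077-22622376 (plus strand), Gabrg1 is chr5:70842568-70842867 (minus strand) and Gabra2 is chr5:71095800-71096099 (minus strand).
Gad1: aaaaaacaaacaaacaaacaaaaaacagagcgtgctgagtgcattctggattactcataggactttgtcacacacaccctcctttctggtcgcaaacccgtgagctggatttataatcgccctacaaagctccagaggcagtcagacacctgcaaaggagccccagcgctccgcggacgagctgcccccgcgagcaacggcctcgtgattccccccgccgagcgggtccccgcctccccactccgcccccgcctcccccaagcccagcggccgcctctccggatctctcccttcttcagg
Gad2: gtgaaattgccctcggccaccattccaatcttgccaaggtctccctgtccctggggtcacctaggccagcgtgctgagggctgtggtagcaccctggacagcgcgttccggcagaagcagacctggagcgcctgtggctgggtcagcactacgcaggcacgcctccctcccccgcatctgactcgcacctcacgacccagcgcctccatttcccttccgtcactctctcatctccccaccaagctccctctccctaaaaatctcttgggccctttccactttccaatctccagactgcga
Gabrg1: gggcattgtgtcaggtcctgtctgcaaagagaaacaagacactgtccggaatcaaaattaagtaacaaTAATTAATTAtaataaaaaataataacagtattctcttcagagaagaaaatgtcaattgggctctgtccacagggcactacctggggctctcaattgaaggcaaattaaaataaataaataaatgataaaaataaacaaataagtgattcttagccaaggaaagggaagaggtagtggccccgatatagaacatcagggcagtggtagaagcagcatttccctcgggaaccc
Gabra2: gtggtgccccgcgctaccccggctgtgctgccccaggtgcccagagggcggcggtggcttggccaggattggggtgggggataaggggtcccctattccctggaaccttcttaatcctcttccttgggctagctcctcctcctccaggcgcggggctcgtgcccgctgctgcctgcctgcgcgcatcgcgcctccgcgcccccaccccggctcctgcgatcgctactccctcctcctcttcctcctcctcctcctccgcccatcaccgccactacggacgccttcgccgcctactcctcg
The Gabrg1 window stands apart from the others in its base composition, with a GC content of 38.3% against 60% in Gad1, 61.3% in Gad2 and 70% in Gabra2. It holds 2 overlapping TAATTA cores, and the other windows hold neither core. Of the 28 genes 23 were counted, with 30 promoters, of which 3 held TAATTA or TAATTG (Gabrg1, Gabra6 and 1 of Lhx6). Slc12a2, Abat, Gabrd, Dlx5 and Dlx6 were not part of this count. Over all 32851 promoters of the table the share was 12.4%, counted without leaving out that chromosome.

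In control mice the genes of GABA synthesis and clearance were highest in the amygdala or PFC and low in the hippocampus and CC. The 4 areas differed for 23 of the 27 genes in an F test over the 12 control arrays (limma, Benjamini-Hochberg adjusted p under 0.05), where 58.1% of all genes did, and 9 of these had a fold over 2 between the highest and lowest area, against 10.4% of all genes. The median range between area means was 0.58 on the log2 scale for the 27 genes and 0.30 for all genes. Among the 23 genes that passed, the highest mean was in the PFC for 11, in the amygdala for 8, in the hippocampus for 3 and in the CC for 1, against 24.8%, 33%, 20.4% and 21.8% of all genes that passed. The lowest was in the hippocampus for 14 of the 23, against 37% of all genes that passed. Of all 27 genes, the amygdala exceeded the hippocampus for 16 and was below it for 2, where 27.5% and 13.2% of all genes did so (limma, adjusted over all genes for each pair), and it exceeded the CC for 16 and was below it for 2 (18% and 15% of all genes). Between the amygdala and the PFC the genes split, with 9 above and 10 below in the amygdala (21.1% and 18.1% of all genes). The PFC exceeded the CC for 16 genes and was below it for 1 (15.6% and 16.8% of all genes), and it exceeded the hippocampus for 18 and was below it for 6 (25.9% and 32.2% of all genes). The hippocampus exceeded the CC for 3 and was below it for 9 (12.5% and 24.2% of all genes). In whole tissue, fewer cells of a type and less RNA per cell cannot be told apart.

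**Figure D1:**
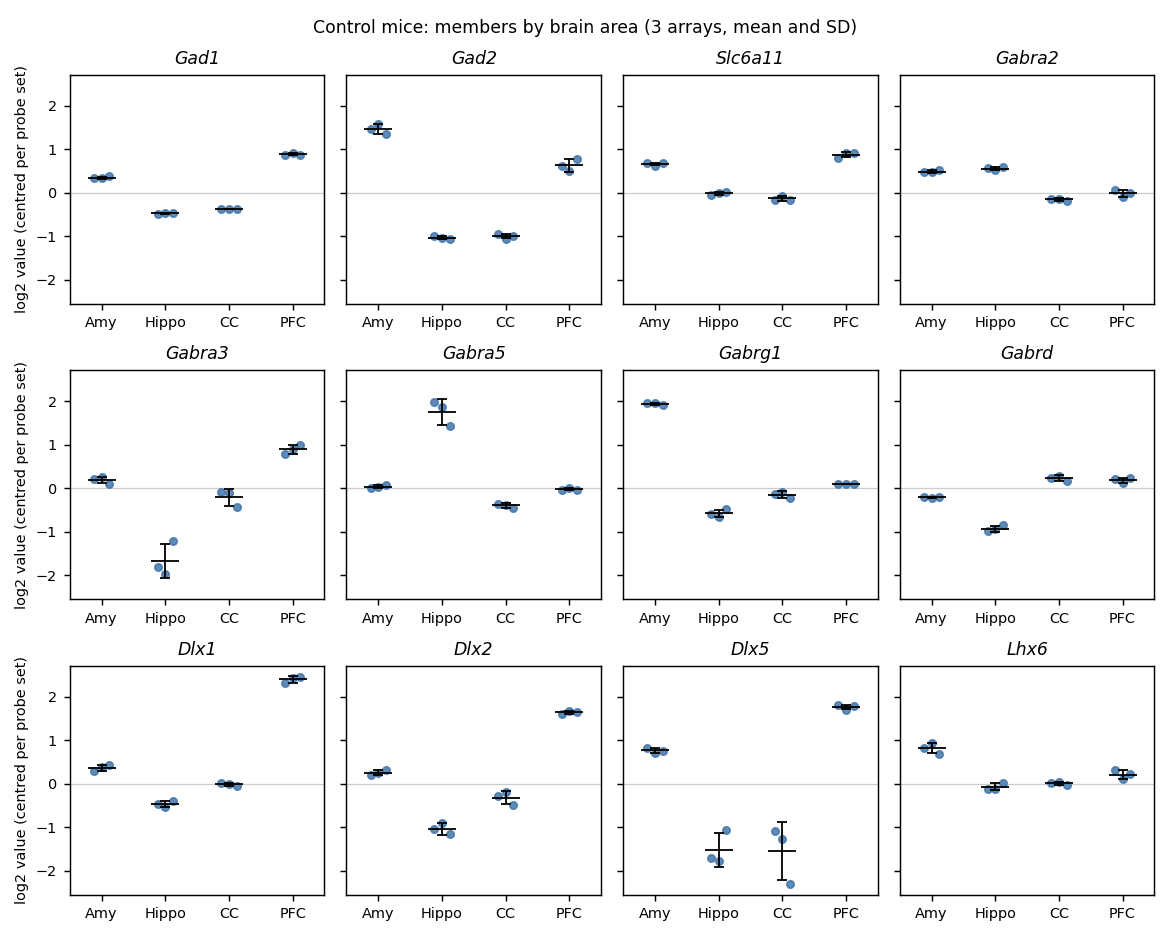
Log2 value, centred on the 24-array median of the probe set (y axis), of 12 genes in the amygdala (Amy), hippocampus (Hippo), cerebral cortex (CC) and prefrontal cortex (PFC) of control mice. Points are the 3 arrays of an area and bars the mean and SD. Gabrg1 stands highest in the amygdala at 1.94, Gabra5 in the hippocampus at 1.75 and Dlx1 in the prefrontal cortex at 2.40.

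Gad2, the glutamate decarboxylase found mostly at nerve terminals, had control values of 1.46, 1.58 and 1.35 in the amygdala, 0.62, 0.49 and 0.78 in the PFC, -0.95, -1.05 and -0.996 in the CC and -0.99, -1.05 and -1.06 in the hippocampus. The amygdala arrays lay above all others, and its mean was 5.65 times that of the hippocampus (F test adjusted p = 5.95e-09, limma). The hippocampus and CC, the lowest pair, did not pass (difference 0.03, SE 0.08, adjusted p = 0.740, limma). Gad1, the other decarboxylase, was highest in the PFC at 0.88 ± 0.02, then in the amygdala at 0.35 ± 0.02, the CC at -0.37 ± 0.01 and the hippocampus at -0.47 ± 0.01 (SD, n = 3 arrays each), and every step of this order passed. The decarboxylases thus differed in order, Gad2 being higher in the amygdala than in the PFC by 0.83 (SE 0.08) and Gad1 lower by 0.53 (SE 0.02) on the log2 scale. Slc6a11, the GABA transporter GAT-3 of astrocytes, had 0.87 ± 0.06 in the PFC and 0.66 ± 0.03 in the amygdala, against -0.02 ± 0.04 in the hippocampus and -0.13 ± 0.05 in the CC, the last pair just missing the threshold. Abat, the transaminase that breaks GABA down, ranged over 0.58 with its highest mean, 0.37 ± 0.01, in the amygdala. Slc32a1, the vesicular GABA transporter, ranged over 0.43, and neither the PFC and amygdala nor the CC and hippocampus differed past the threshold.

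Among the GABA-A receptor subunits the order of the areas differed from gene to gene. Gabrg1, the gamma-1 subunit, had 1.96, 1.95 and 1.91 in the control amygdala, 0.09, 0.11 and 0.09 in the PFC, -0.13, -0.08 and -0.23 in the CC and -0.59, -0.66 and -0.49 in the hippocampus. Its 3 amygdala arrays lay far above every other control array, and all steps of the order passed (F test adjusted p = 5.78e-10, limma). Gabra5, the alpha-5 subunit known for extrasynaptic receptors of hippocampal pyramidal cells, had 1.97, 1.85 and 1.42 in the hippocampus, against 0.00, 0.04 and 0.07 in the amygdala, -0.04, 0.00 and -0.03 in the PFC and -0.35, -0.38 and -0.46 in the CC. The hippocampus arrays stood apart from the rest, at 4.41 times the CC on the means, and the amygdala and PFC did not differ past the threshold (0.06, SE 0.11, adjusted p = 0.690, limma). Gabra3, the alpha-3 subunit, ran the other way, at -1.80, -1.97 and -1.22 in the hippocampus, -0.09, -0.11 and -0.43 in the CC, 0.22, 0.25 and 0.10 in the amygdala and 0.79, 0.89 and 0.99 in the PFC. Its hippocampus arrays were the lowest and the most spread, and the amygdala and CC did not differ past the threshold (0.40, SE 0.17, adjusted p = 0.115, limma).

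Gabra2, the alpha-2 subunit, was higher in the hippocampus (0.55 ± 0.04) and amygdala (0.49 ± 0.03), which did not differ past the threshold, than in the PFC (-0.02 ± 0.07) and CC (-0.15 ± 0.03; SD, n = 3 each). Its neighbour Gabrg1 shared the high amygdala and not the high hippocampus. Gabrd, the delta subunit of extrasynaptic receptors, was lowest in the hippocampus at -0.93 ± 0.07, against 0.23 ± 0.06 in the CC and 0.19 ± 0.06 in the PFC, which did not differ past the threshold, and -0.21 ± 0.01 in the amygdala. Gabrb1, the beta-1 subunit, had its highest mean, 0.52 ± 0.04, in the hippocampus and its lowest, -0.46 ± 0.03, in the PFC, while Gabrb2, the beta-2 subunit, was lowest in the hippocampus at -0.50 ± 0.09 and between -0.04 and 0.05 elsewhere. Gabrg3, the gamma-3 subunit, ranged over 0.43 and was lowest in the hippocampus. For Gabra4, Gabra6, Gabre and Gabrq the F test did not pass (adjusted p = 0.721, 0.0630, 0.0813 and 0.0929, limma), and Gabra6, Gabre and Gabrq are the genes whose probe sets were all flat.

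Gabbr1, the ligand-binding subunit of the GABA-B receptor, was higher in the PFC at 0.24 ± 0.01 than elsewhere, where the area means were -0.11 to -0.05. The scaffold and chloride genes differed less between areas than the synthesis genes, with ranges of 0.28 to 0.35. Nlgn2, a neuroligin of inhibitory synapses, Slc12a5, the chloride exporter KCC2 of mature neurons, and Gphn, the receptor scaffold gephyrin, were highest in the PFC (0.31 ± 0.01, 0.16 ± 0.06 and 0.16 ± 0.04), Gphn without passing against the amygdala. Slc12a2, the chloride importer NKCC1, was highest in the amygdala at 0.22 ± 0.06, against -0.13 ± 0.04 to -0.04 ± 0.04 elsewhere (SD, n = 3 each).

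Of the transcription factors of GABAergic neurons, Dlx5, Dlx2 and Dlx1 had ranges of 3.31, 2.68 and 2.86 between area means, wider than the other 24 genes, while Lhx6 ranged over 0.89 and Dlx6 over 0.56. Dlx1 had 2.31, 2.42 and 2.46 in the control PFC, 0.29, 0.39 and 0.42 in the amygdala, 0.02, -0.01 and -0.06 in the CC and -0.47, -0.54 and -0.39 in the hippocampus, without overlap of any areas. Dlx2 followed the same order, with 1.64 ± 0.03 in the PFC and -1.04 ± 0.13 in the hippocampus, and Dlx5 had 1.76 ± 0.05 in the PFC, 0.77 ± 0.06 in the amygdala, -1.51 ± 0.39 in the hippocampus and -1.55 ± 0.66 in the CC, the last mean resting on values of -1.08, -1.26 and -2.31. These genes mark the GABAergic lineage of the ganglionic eminences, which supplies both striatal neurons and the interneurons of the olfactory bulb. Lhx6, which marks interneurons of the medial eminence, was instead highest in the amygdala at 0.82 ± 0.12, against 0.21 ± 0.10 in the PFC (SD, n = 3 each). Dlx6 had 0.73, 0.77 and 0.13 in the amygdala, so 1 array lay far below the others. The mean of 10 striatum markers in the control arrays was 1.13 in the amygdala, 0.83 in the PFC, -2.14 in the CC and -2.70 in the hippocampus, and that of 10 interneuron markers was 0.48 in the PFC, 0.08 in the amygdala, -0.10 in the CC and -0.30 in the hippocampus. Their part, and that of the olfactory bulb markers above, in the order of the areas was not tested.

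In the amygdala with CMS, GABA genes were called lower more often than higher. Of the 27 genes 11 were lower and 1 was higher (limma on the 6 arrays of the area, adjusted p under 0.05), against 8.84% of all genes lower and 10.5% higher, and 15 were not called. The median difference was -0.09 on the log2 scale for the 27 genes and 0.02 for all genes. No gene mean passed a fold of 2 as well, which 0.583% of all genes did in either direction. The CMS and control arrays did not overlap for 22 of the 27 genes, and for 55.2% of all genes.

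**Figure D2:**
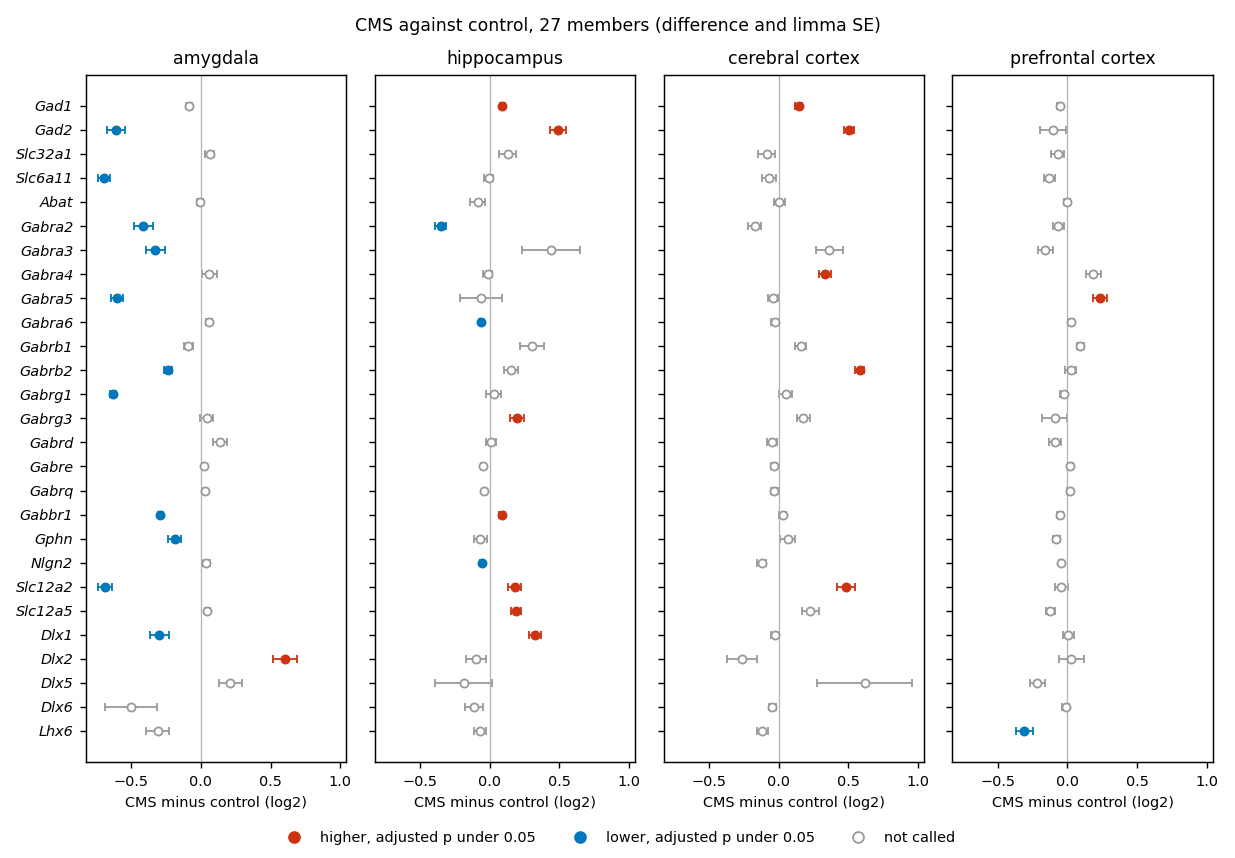
Difference between CMS and control on the log2 scale (x axis) of the 27 genes in each of the 4 areas, with the limma standard error as bars. Filled red points are genes called higher and filled blue points genes called lower at an adjusted p under 0.05. The amygdala panel has 11 blue points and 1 red one, the hippocampus 3 and 7, the cerebral cortex 0 and 5 and the prefrontal cortex 1 of each.

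Gad2 had 0.88, 0.85 and 0.84 in the CMS amygdala, against 1.46, 1.58 and 1.35 in the control amygdala. All 3 CMS arrays were lower than every control array, and the gene fell by 0.61 on the log2 scale (SE 0.06, adjusted p = 0.00542, limma), a ratio of CMS to control of 0.655. Slc6a11 had -0.12, 0.03 and -0.03 with CMS and 0.67, 0.62 and 0.68 in controls, again without overlap, and fell by 0.69 (SE 0.04, adjusted p = 0.00203). Of the other presynaptic and metabolic genes, none was called: Gad1 differed by -0.09 (SE 0.02, adjusted p = 0.0615), Slc32a1 by 0.06 and Abat by -0.01.

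Of the 12 GABA-A receptor subunits, 5 were lower in the amygdala and none was higher. At an unadjusted p under 0.05 these counts were 6 and 2 (limma), where 14.2% of all genes were lower and 22.4% higher. Gabrg1, the subunit that set the control amygdala apart, had 1.296, 1.33 and 1.29 with CMS and 1.96, 1.95 and 1.91 in controls. It fell by 0.63 (SE 0.02, adjusted p = 0.000738), and the CMS arrays still lay above the arrays of every other area. Gabra5 fell by 0.60 (SE 0.05, adjusted p = 0.00297), Gabra2 by 0.41 (SE 0.07, adjusted p = 0.0169), Gabra3 by 0.33 (SE 0.07, adjusted p = 0.0312) and Gabrb2 by 0.24 (SE 0.03, adjusted p = 0.00898). The 7 subunits not called had differences between -0.09 and 0.14. Gabbr1 also fell, by 0.29 (SE 0.02, adjusted p = 0.00267).

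Slc12a2 had -0.49, -0.39 and -0.54 in the CMS amygdala and 0.27, 0.22 and 0.16 in the control amygdala. The arrays did not overlap, and the gene fell by 0.69 (SE 0.05, adjusted p = 0.00273), while Slc12a5 differed by 0.05 (SE 0.02, adjusted p = 0.159). Gphn fell by 0.19 (SE 0.04, adjusted p = 0.0438), and Nlgn2 differed by 0.04. The transcription factors split. Dlx1 fell by 0.30 (SE 0.07, adjusted p = 0.0417), whereas Dlx2, its neighbour, had 0.88, 0.69 and 0.99 with CMS and 0.19, 0.24 and 0.31 in controls and rose by 0.60 (SE 0.09, adjusted p = 0.0129). Dlx6 (-0.50, SE 0.19) and Lhx6 (-0.31, SE 0.08) did not pass (adjusted p = 0.122 and 0.0586).

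Markers of several cell types and neighbouring areas moved in the same arrays. Of the oligodendrocyte markers 5 of 5 were lower, with a mean of -0.53 to -0.50 in CMS arrays and -0.05 to 0.02 in control arrays, and of the astrocyte markers 4 of 7 were lower, with -0.01 to 0.02 in CMS arrays and 0.24 to 0.26 in control arrays. The 9 hypothalamus markers, of which 3 were lower, had 0.79 to 0.98 with CMS and 1.65 to 1.99 in controls, the 5 amygdala markers, of which 3 were lower, had 0.37 to 0.52 with CMS and 0.96 to 1.05 in controls, and 8 of 10 striatum markers were higher, with 1.45 to 1.49 in CMS arrays and 1.12 to 1.13 in control arrays. Of 10 interneuron markers 2 were higher and 4 lower, with means of -0.36 to -0.08 in CMS arrays and 0.05 to 0.09 in control arrays. Tac2, which fell by 1.58 (SE 0.13), is on both the interneuron and the amygdala list, so these lists are not separate observations. The bacterial RNAs added as hybridisation controls had a mean of 0.82 ± 0.07 in CMS arrays and 0.01 ± 0.00 in control arrays (SD, n = 3 each). The part of these lists and controls in the result was not tested. Without control replicate 1 or 2 of the amygdala, 7 of the GABA genes were lower in place of 11, and none was higher. Centring each array on its median moved the share of higher genes among all called genes to 41.7% in place of 54.4%, with 12 of the GABA genes lower and 1 higher.

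**Figure D3:**
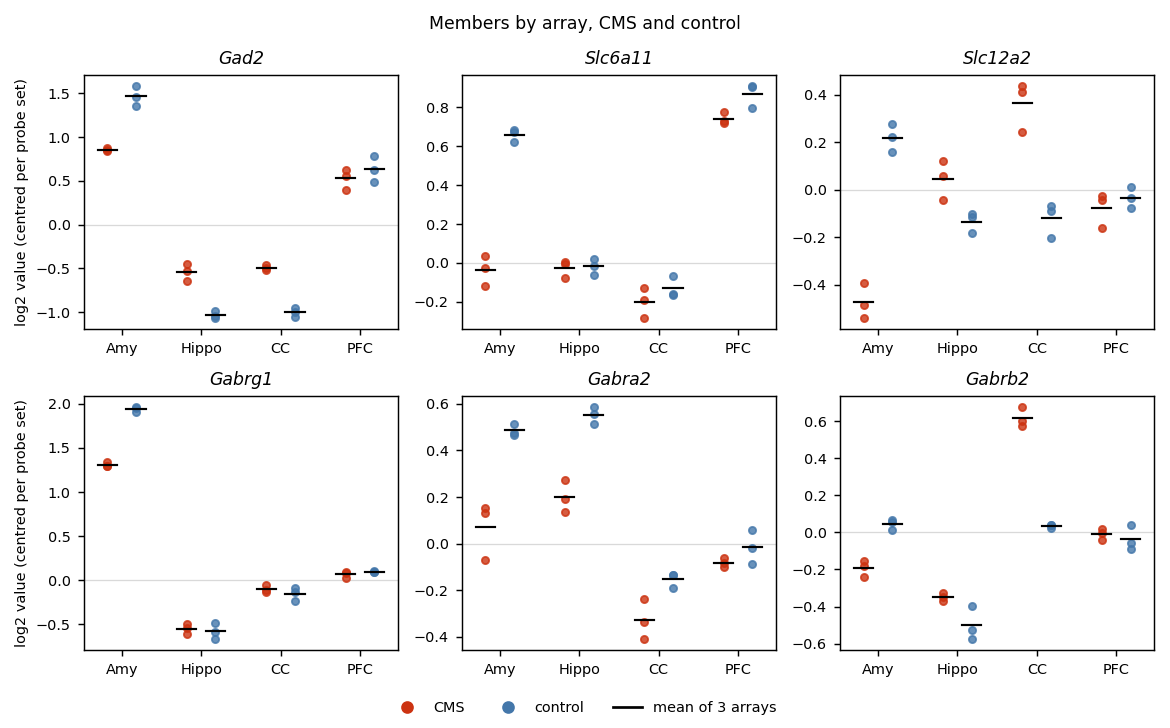
Log2 value, centred on the median of each probe set (y axis), of 6 genes in CMS arrays (red) and control arrays (blue) of the 4 areas, with the mean of 3 arrays as a line. Each panel has its own y axis. In the amygdala (Amy) the CMS arrays of all 6 genes lie below the control arrays, and in the cerebral cortex (CC) those of Gad2, Slc12a2 and Gabrb2 lie above them.

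In the hippocampus with CMS, both GABA synthesis genes were higher, as were the chloride exporter Slc12a5 and, with the values as deposited, the chloride importer Slc12a2. Of the 27 genes 7 were higher and 3 lower, where 4.66% of all genes were higher and 24.9% lower, and none passed a fold of 2 (0.253% of all genes). The median difference was -0.01 for the 27 genes and -0.05 for all genes, and the arrays did not overlap for 16 of the 27 (56.4% of all genes). The whole area leaned towards lower values as deposited, with 15.7% of all called genes higher, against 39.9% after quantile normalization and 38.4% after median centring, and the GABA genes counted 7 higher and 1 lower with quantile normalization and 5 higher and 1 lower with centring. Slc12a2 was not among the genes called higher under either scaling, whereas Gad1, Gad2, Slc12a5, Gabbr1 and Dlx1 were under both.

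Gad2 had -0.65, -0.46 and -0.53 in the CMS hippocampus and -0.99, -1.05 and -1.06 in the control hippocampus. No arrays overlapped, and it rose by 0.49 (SE 0.06, adjusted p = 0.0106, limma), a ratio of 1.40. Gad1 rose by 0.09 (SE 0.02, adjusted p = 0.0270), and Slc32a1 differed by 0.13 (SE 0.06, adjusted p = 0.150). Dlx1 had -0.14 in each of the 3 CMS arrays and -0.47, -0.54 and -0.39 in controls, and rose by 0.33 (SE 0.04, adjusted p = 0.0125), with an adjusted p of 0.0510 without CMS replicate 3. Slc12a5 rose by 0.19 (SE 0.03, adjusted p = 0.0224) and Slc12a2 by 0.18 (SE 0.05, adjusted p = 0.0481), and Gabbr1 rose by 0.09 (SE 0.02, adjusted p = 0.0468).

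Gabra2 was the member with the largest decrease in the hippocampus. It had 0.19, 0.14 and 0.27 with CMS and 0.56, 0.52 and 0.59 in controls, without overlap, and fell by 0.35 (SE 0.04, adjusted p = 0.0111). The call was lost with the most variable probe set (-0.34, adjusted p = 0.0870, limma) and with the replicate block (adjusted p = 0.0526, limma). Gabrg3 had -0.03, -0.03 and -0.15 with CMS and -0.24, -0.34 and -0.22 in controls and rose by 0.20 (SE 0.05, adjusted p = 0.0414), a call that was lost when any array other than control replicate 3 was left out (adjusted p = 0.0591 to 0.116). Gabra6 (-0.06) and Nlgn2 (-0.06) were called lower at sizes close to the shift of all genes and were not called after quantile normalization or median centring. Gabra5, the gene that sets the hippocampus apart, did not pass, at -0.06 (SE 0.15, adjusted p = 0.768). The counts moved with single arrays: 2 to 4 genes were higher when a CMS array or control replicate 1 or 2 was left out and 8 without control replicate 3, and the lower count was 1 and 4 in the same way. Of 11 thalamus and habenula markers, 9 were higher in the same arrays, with means of 0.47 to 0.56 with CMS and -0.60 to -0.53 in controls, and of 10 interneuron markers 2 were higher and 4 lower, with -0.24 to -0.23 with CMS and -0.39 to -0.19 in controls. The 7 hippocampus markers, of which 1 was higher and 3 lower, had 3.20 to 3.30 with CMS and 3.38 to 3.53 in controls. Choroid plexus markers were higher for 2 of 7 genes, with 3.05 to 3.21 with CMS and 2.83 to 2.88 in controls. Of 7 astrocyte markers 3 were lower, with means of 0.14 to 0.20 with CMS and 0.24 to 0.28 in controls, and the hybridisation controls had -1.48 ± 0.02 in CMS arrays and -1.11 ± 0.04 in control arrays (SD, n = 3 each). The part of these lists and controls in the result was not tested.

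In the CC 5 of the 27 genes were higher with CMS and none was lower, where 5.95% of all genes were higher and 3.99% lower. The 5 were both synthesis genes, the receptor subunits Gabra4 and Gabrb2, and Slc12a2. With quantile normalization Gad1 was not called and Slc12a5 was called higher, so the count was again 5. None passed a fold of 2 as a gene mean (0.357% of all genes), the medians were 0.01 for the 27 genes and -0.03 for all genes, and arrays did not overlap for 16 of the 27 (52.1% of all genes). At an unadjusted p under 0.05 limma gave 9 genes higher and 3 lower (12.5% and 11.6% of all genes), the methods' t-test gave none lower after adjustment, and a fit of all 24 arrays gave 2 lower.

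Gabrb2 had 0.57, 0.67 and 0.60 in the CMS CC and 0.04, 0.02 and 0.04 in the control CC. The CMS arrays lay far above the controls and above all other arrays of the series, and the gene rose by 0.58 (SE 0.03, adjusted p = 0.00150, limma), a ratio of 1.498. Gad2 had -0.46, -0.50 and -0.52 with CMS and -0.95, -1.05 and -0.996 in controls and rose by 0.51 (SE 0.04, adjusted p = 0.00279). Gad1 rose by 0.14 (SE 0.02, adjusted p = 0.0253), and the other presynaptic and metabolic genes did not pass, with Slc32a1 at -0.08, Slc6a11 at -0.07 and Abat at 0.01. Slc12a2 had 0.24, 0.41 and 0.44 with CMS and -0.09, -0.07 and -0.20 in controls and rose by 0.48 (SE 0.07, adjusted p = 0.0145). Gabra4, the alpha-4 subunit, whose control level did not differ between areas, had 0.31, 0.23 and 0.33 with CMS and -0.10, -0.05 and 0.02 in controls and rose by 0.33 (SE 0.04, adjusted p = 0.0119).

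Dlx5 had the largest difference of the 27 genes in the CC, 0.62 (SE 0.34), and did not pass (adjusted p = 0.320), with control replicate 3 at -2.31. Slc12a2 had an adjusted p of 0.0582 without CMS replicate 2 and 0.0542 without CMS replicate 3, and Gabra4 had 0.0532 without CMS replicate 1 and 0.0516 without CMS replicate 3, with 2 or 3 genes called higher without 1 of the CMS arrays. Median centring gave 71.9% of all called genes as higher in place of 59.9%, with 6 of the GABA genes higher and none lower. Striatum markers were higher for 9 of 10 genes, with means of -0.80 to -0.71 in CMS arrays and -2.25 to -2.08 in control arrays. Astrocyte markers were higher for 3 of 7 genes, with 0.07 to 0.08 in CMS arrays and -0.28 to -0.20 in control arrays, and oligodendrocyte markers for 4 of 5, with 0.16 to 0.21 in CMS arrays and -0.04 in control arrays for the oligodendrocyte list, and choroid plexus markers were lower for 7 of 7, with -1.50 to -1.40 in CMS arrays and 2.11 to 2.31 in control arrays. Interneuron markers, with 2 of 10 higher and 1 lower, had -0.01 to 0.02 in CMS arrays and -0.23 to -0.02 in control arrays. The hybridisation controls had 0.01 ± 0.04 in CMS arrays and 0.15 ± 0.10 in control arrays (SD, n = 3 each). The part of these lists and controls in the result was not tested.

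In the PFC 1 of the 27 genes was higher and 1 lower with CMS, shares near the 4.45% and 3.92% of all genes, and none passed a fold of 2 (0.247% of all genes). The median was -0.04 for the 27 genes and 0.02 for all genes, and arrays did not overlap for 15 of the 27 (48.1% of all genes). Gabra5 had 0.31, 0.16 and 0.16 with CMS and -0.04, 0.00 and -0.03 in controls and rose by 0.23 (SE 0.05, adjusted p = 0.0477, limma). Lhx6 had -0.16, -0.03 and -0.11 with CMS and 0.30, 0.10 and 0.23 in controls and fell by 0.31 (SE 0.06, adjusted p = 0.0445). Both calls sat at the threshold. That of Gabra5 was lost when any array but CMS replicate 1 was left out (adjusted p = 0.0803 to 0.139), and that of Lhx6 when any but control replicate 2 was (adjusted p = 0.0799 to 0.137). Gad1 and Gad2 differed by -0.06 and -0.10 and did not pass. Dlx1 and Dlx2, which were so much higher here than in the other areas, differed by 0.01 and 0.03. In the same arrays 5 of 5 neutrophil markers were higher (5.39 to 5.58 with CMS and 1.29 to 1.47 in controls), 4 of 5 oligodendrocyte markers (-0.37 to -0.33 with CMS and -0.12 to -0.07 in controls) and 4 of 7 choroid plexus markers (-1.39 to -1.32 with CMS and 0.02 to 0.28 in controls) were lower. Of 10 interneuron markers 4 were higher (Pvalb, Vip, Npy and Cort) and 1 was lower (Nos1). Their median difference was -0.06, with means of 0.48 to 0.51 with CMS and 0.45 to 0.52 in controls. Of 10 striatum markers 1 was higher and 4 lower, with 0.68 to 0.70 with CMS and 0.81 to 0.86 in controls. The hybridisation controls had 0.14 ± 0.03 in CMS arrays and -0.17 ± 0.05 in control arrays (SD, n = 3 each). The part of these lists and controls in the result was not tested. Median centring gave 43.0% of all called genes as higher in place of 53.1%, with Gad1 the only GABA gene called, as lower.

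Single probe sets moved further than the gene means. Of the 63 probe sets, 1 was higher and 5 lower in the PFC, 13 and 3 in the CC, 14 and 12 in the hippocampus and 4 and 20 in the amygdala (limma over all probe sets, an alternative added after the data had been seen). Over all probe sets tested, 2.78% were higher and 2.48% lower in the PFC, 5.49% and 3.67% in the CC, 5.68% and 35% in the hippocampus and 11.4% and 6.88% in the amygdala. Past a fold of 2 as well, 5 of the 63 were lower in the amygdala (0.777% of all probe sets) and 3 were higher in the CC (0.875%).

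**Figure D4:**
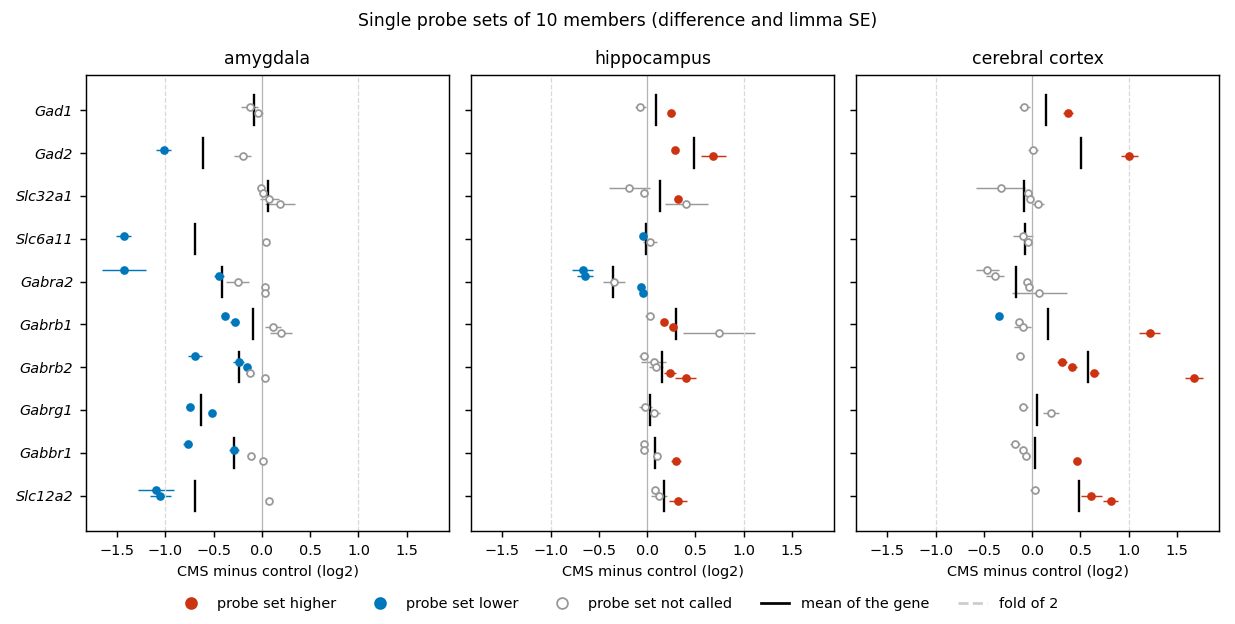
Difference between CMS and control on the log2 scale (x axis) of the single probe sets of 10 genes in 3 areas, with the limma standard error as bars, and the mean of the gene as a black line. Dashed lines mark a fold of 2. Probe sets of 1 gene lie far apart, such as those of Gad2 in the amygdala at -1.02 and -0.20.

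The 5 in the amygdala belonged to Gad2, Slc6a11, Gabra2 and, with 2, Slc12a2. The Slc6a11 probe set 1433989_at had -0.26, 0.01 and -0.11 with CMS and 1.33, 1.24 and 1.36 in controls and fell by 1.43 (SE 0.08, adjusted p = 0.00190), while the other was flat over all arrays and differed by 0.04. The Gabra2 probe set 1421738_at had -1.12, -0.51 and -0.30 with CMS and 0.74, 0.77 and 0.86 in controls and fell by 1.43 (SE 0.23, adjusted p = 0.0198), with 1 of its 4 other probe sets lower by 0.45 and 2 flat. The Gad2 probe set 1421978_at had 0.78, 0.62 and 0.54 with CMS and 1.66, 1.76 and 1.58 in controls and fell by 1.02, while 1429589_at differed by -0.20 and was not called. For Slc12a2, 1417623_at fell by 1.10 (SE 0.18) and 1448780_at by 1.05 (SE 0.11), and the third differed by 0.08. Both probe sets of Gabrg1 fell, by 0.75 and 0.52, so this gene's decrease did not rest on 1 of them.

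In the CC the same Gad2 probe set, 1421978_at, had -0.36, -0.50 and -0.51 with CMS and -1.29, -1.55 and -1.56 in controls and rose by 1.01 (SE 0.09, adjusted p = 0.00499), and the other differed by 0.00. The Gabrb2 probe set 1450319_at had 0.98, 1.24 and 1.16 with CMS and -0.43, -0.55 and -0.66 in controls and rose by 1.68 (SE 0.09, adjusted p = 0.00148). Of the 5 probe sets of Gabrb2, 4 were higher in the CC and 3 lower in the amygdala. Gabrb1 was not called as a gene in any area, yet in the CC 1443205_at rose by 1.22 and 1419719_at fell by 0.35. In the hippocampus both Gad2 probe sets were higher, by 0.69 and 0.29, and of the Gad1 pair 1 was higher by 0.25 and the other differed by -0.07.

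The 24 arrays were then fitted together, with a mean for each of the 8 groups, to compare the CMS effect across areas. It differed for 24 of the 27 genes (limma F test, adjusted p under 0.05), where it did for 52.3% of all genes, and not for Slc32a1, Abat and Dlx5. Among the 24 were Gabra6, Gabre and Gabrq, whose probe sets were all flat. Quantile normalization gave 19 genes and median centring 20, and the share of all genes was not counted for either. For 2 genes, Gad2 and Slc12a2, 2 areas also differed by over 1 on the log2 scale, which 2.47% of all genes did. Gad2 fell by 0.61 in the amygdala and rose by 0.49 in the hippocampus and 0.51 in the CC, with -0.10 in the PFC, and its effect in the amygdala minus that in the CC was -1.12 (SE 0.10, adjusted p = 2.06e-07). The CMS effect on Slc12a2 was 0.48 in the CC, 0.18 in the hippocampus, -0.04 in the PFC and -0.69 in the amygdala, and the same difference of effects was -1.17 (SE 0.08, adjusted p = 8.80e-09). The area means of Gad2 lay closer together with CMS, with means of 0.86, 0.53, -0.49 and -0.54 in the amygdala, PFC, CC and hippocampus of CMS mice, against 1.46, 0.63, -0.998 and -1.03 in those of control mice.

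Gabrb2 also had opposite calls, with -0.24 in the amygdala and 0.58 in the CC (effect in the amygdala minus that in the CC -0.82, SE 0.06, adjusted p = 1.01e-08). Gabra5 was called lower in the amygdala and, in the fit of the PFC alone, higher in the PFC (difference of effects -0.84, SE 0.13, adjusted p = 0.000175), and the PFC call was not made in the fit of all 24 arrays (adjusted p = 0.129). Gabbr1 and Dlx1 were lower in the amygdala but higher in the hippocampus. Their effects in the amygdala minus those in the hippocampus were -0.38 (SE 0.03) and -0.63 (SE 0.07). Gabrg1 and Slc6a11, whose decreases were called in the amygdala alone, differed in effect by -0.69 (SE 0.06) each, Gabrg1 between the amygdala and the CC and Slc6a11 between the amygdala and the hippocampus. Gabra2 was lower in 2 areas and was not higher in any. In the fits of single areas, 8 of the 27 genes were called in no area, 11 in 1, 6 in 2 and 2 in 3, and none in all 4, against 51.3%, 33.7%, 11.8%, 2.6% and 0.544% of all genes. Of the 6 called in 2 areas, 4 had opposite directions, 1 of them Gabra5 with its PFC call at the threshold, where 58.7% of all genes called in 2 areas did. Both of those called in 3 areas had opposite directions, as had 63.4% of all genes called in 3.

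Of 27 other genes of the GABA pathway 19 were measured, among them rho subunits, receptor-associated proteins, glial transporters and enzymes of GABA and glutamine metabolism. In the amygdala none was higher and 2 were lower, Gabarapl1, a relative of the receptor-associated protein GABARAP (-0.26, SE 0.04, adjusted p = 0.0194, limma), and Aldh5a1, the dehydrogenase that follows Abat in GABA breakdown (-0.11, SE 0.02, adjusted p = 0.0327). In the hippocampus Gabrr2, a rho subunit, was called lower, at -0.05, a size close to the shift of all genes there. The other 18 were not called. In the CC Slc38a1, a glutamine transporter of neurons, rose by 0.47 (SE 0.04, adjusted p = 0.00462) and Gabarap by 0.22, and Aldh5a1 fell by 0.24. In the PFC Aldh9a1 (-0.18) and Gabarapl1 (-0.13) were lower. The median difference of the 19 genes was -0.08 in the PFC, -0.03 in the CC, -0.04 in the hippocampus and -0.01 in the amygdala, against 0.02, -0.03, -0.05 and 0.02 for all genes.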

How the data were processed

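RNA of 4 brain areas of CMS and control mice was hybridised to 24 Affymetrix GeneChip Mouse Genome arrays. GeneSpring GX, with GCRMA and a baseline setting, was the tool of the authors for the signals (version not given in the sources used here), and the deposited log2 values have a median of 0 for each probe set over the 24 arrays, so no absolute level and no signal over background can be read and precision is limited by how many arrays there are. The sample descriptions give age ranges whose upper end rises by 1 week from sample to sample, while the growth protocol has a single range, and age entered no fit.

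After 64 control probe sets were left out, 45037 were kept, of which 34945 had 1 gene symbol in the platform annotation, 932 several and 9160 none. The mean of the probe sets of a gene gave 18193 genes. Each area had its own fit of CMS against control (limma 3.58.1, R 4.3.3), two-sided, with Benjamini-Hochberg adjustment over all genes, and a gene was called at an adjusted p under 0.05. Control areas were compared on 12 arrays, and the CMS effect between areas on all 24. For a single value, an exact two-sided test of 3 against 3 arrays cannot go below 0.1, so calls rest on the spread that limma pools over genes. Values per array are given for up to 4 called genes per area with the largest difference and arrays that do not overlap, and for up to 4 genes per class with the largest range between control areas, and other genes named with values were chosen after these were seen. Genes of the list named without a value per array are given by their difference or count. The genes and marker lists were chosen with earlier results of these data known. The thalamus and habenula, choroid plexus, neutrophil, striatum and hypothalamus lists include genes that the authors list among those most changed with CMS. Counts from these lists are therefore not independent of those results. The scripts were tested on simulated data. Alternatives were quantile normalization, median centring, a filter on the range, the most variable probe set, trend and robust options, a replicate block, the methods' t-test, all 24 arrays in 1 fit, a fold over 2 and leaving out each array, with probe sets in place of genes as an alternative chosen after seeing the data. Promoters came from RefSeq (GRCm38.p6), and Python 3.11.15 with matplotlib 3.10.9 made the figures.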

Additional observations from a re-analysis of the deposited data

Results flagged for a closer look

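The CMS effect on Gad2 differed between areas, with -0.61 in the amygdala and 0.51 in the cerebral cortex on the log2 scale, a difference of effects of -1.12 (SE 0.10, adjusted p = 2.06e-07 from limma on 24 arrays), and every CMS array lay below the controls in the amygdala and above them in the cerebral cortex. That on Slc12a2 differed between the same areas, with -0.69 and 0.48 and a difference of effects of -1.17 (SE 0.08, adjusted p = 8.80e-09 from limma), again without overlap of the arrays in either area. In both genes 1 probe set moved little in either area (-0.20 and 0.00 for Gad2, 0.08 and 0.02 for Slc12a2). Striatum markers were higher with CMS in both areas, for 8 of 10 genes in the amygdala and 9 of 10 in the cerebral cortex. Oligodendrocyte markers were lower for 5 of 5 genes in the amygdala and higher for 4 of 5 in the cerebral cortex. Astrocyte markers were lower for 4 of 7 in the amygdala and higher for 3 of 7 in the cerebral cortex. The part of these lists in these differences was not tested.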

How the results depend on the processing

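The 14 gene and area pairs followed were called genes picked for a large difference and for arrays that do not overlap. None changed direction under the alternatives run, but most of these settings could not have changed it. Leaving out 1 array cannot turn such a pair. The trend and robust options, the replicate block, the t-test and the fit of all 24 arrays keep the same difference. With each pair under 8 settings besides leaving out an array, 88 results kept their side of the threshold and 24 lost the call, and when single arrays were left out 64 kept it and 20 lost it. With a fold over 2 as well, 0 genes were higher or lower in any area. In the amygdala, the 1 gene higher became 2 with quantile normalization or with the most variable probe set per gene, 3 in a fit of all 24 arrays and 4 with probe sets tested. In the hippocampus, the 7 higher became 3 when the probe sets with the smallest range were left out, 4 by the methods' t-test and 11 with probe sets tested, and the 3 lower became 1 with quantile normalization, median centring or that filter, 5 with trend and robust options or the t-test, and 8 with probe sets tested. In the cerebral cortex, the 5 higher became 9 with the most variable probe set or with probe sets tested, and the 0 lower became 1 with the filter or the most variable probe set, 2 in a fit of all 24 arrays and 3 with probe sets tested. In the prefrontal cortex, the 1 higher became 0 with quantile normalization, median centring, the filter, the most variable probe set, trend and robust options or the t-test, and the 1 lower became 0 with quantile normalization, trend and robust options or the t-test, 4 with the most variable probe set and 5 with probe sets tested. The share of higher genes among all called genes fell below that of lower genes with median centring in the amygdala (41.7% in place of 54.4%) and the prefrontal cortex (43.0% in place of 53.1%), and with quantile normalization in the amygdala (45.5%). The cause was not tested. The filter kept 22518 probe sets, 11448 genes and 24 of the 27 genes, without Gabra6, Gabre and Gabrq.

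Leaving out 1 array gave 0 to 2 genes higher and 7 to 10 lower in the amygdala, 2 to 8 and 1 to 4 in the hippocampus, 2 to 7 and 0 to 0 in the cerebral cortex and 0 to 1 and 0 to 1 in the prefrontal cortex, 22 to 26 genes that differed between control areas and 20 to 25 whose CMS effect differed between areas. The replicate numbers are shared between groups. Same-numbered CMS and control arrays did not deviate together (r of their deviations from the group means -0.06 to 0.01, and -0.23 to 0.11 between control arrays of different areas). These values were not set against pairs with different numbers, so whether areas with the same number share a mouse cannot be read. The main fits over several areas treated all arrays as independent. With the replicate block, 0 genes were higher and 0 lower in the hippocampus, 2 were higher in the cerebral cortex, and 0 were higher and 0 lower in the prefrontal cortex. In the amygdala 1 was higher and 8 were lower with the block, in place of 11 lower, and 9 were lower by the methods' t-test. Arrays, 3 per group, limit what small differences can be called.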
